A study of Mus musculus with 3 samples.

Results

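The 9 genes described here, Ccr1, Ccr2, Ccr7, Ccr9, Cx3cr1, Cxcr2, Cxcr3, Cxcr4 and Cxcr6, encode chemokine receptors and were taken by name from the 23860 genes listed in the deposited single-cell tables. All 9 were listed in both tables, so no member was lost. Molecules of mRNA were counted in single non-parenchymal liver cells of C57BL/6J mice, which were prepared by collagenase perfusion and a density step and captured with the BD Rhapsody whole-transcriptome assay. The first library was titled with the abbreviation MCD and its table was headed APAP0h, whereas the methods of the study describe wild-type mice on a normal chow diet (NCD). With the limits on genes and mitochondrial molecules given in the methods, and cells exactly at a limit left out, 23312 cells of its table remained. That is also the number given for livers on NCD, which is why it is called the NCD library here, although the title and the header still name something else. The same limits left 19599 cells of the other table, which is above the numbers given for wild-type and Chi3l1-/- livers together. The other library, the HFHC pool, held cells of wild-type and Chi3l1-/- mice (the title spells the gene Chil1) fed for 16 weeks on a diet rich in fat and cholesterol (HFHC). The series also lists a sample-tag library of this pool, which was not analysed here. The table used here gave no genotype for a cell, so the pool is a mixture of 2 genotypes, and diet, genotype, animal and library cannot be told apart. With 1 library per diet there was no replicate, so no test was made and all intervals given cover counting error only.

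Chemokine receptors are membrane proteins that couple to inhibitory G proteins and steer cells along gradients of chemokines, small secreted proteins made at sites of inflammation or by resident stromal cells. In the liver they are best known for bringing leukocytes in from blood and for holding patrolling or resident lymphocytes in the sinusoids. Each leukocyte type carries its own combination of receptors, and several receptors bind more than 1 ligand.

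Of 30734 and 21601 cells in the tables of the NCD library and the HFHC pool, 23346 and 19625 were kept, with a median of 1322.5 and 1622 unique molecules (UMIs) per cell. The cells were clustered without any chemokine receptor, and clusters were named after their markers or, for some T-like classes, after leading genes. Clusters of mixed lineage were split cell by cell on markers. A name with "-like" is such a class and not a sorted cell type. Of the 30 classes, 22 (NCD library) and 24 (HFHC pool) held at least 50 cells, and 19 did so in both. No class name was given to 20.8% and 22.4% of the kept cells. Neutrophil-like cells made up 13.5% and 1.73% of the kept cells in that order, and hepatocyte-like cells, which the preparation was meant to leave behind, 15.4% and 44.6%. The median mitochondrial share was 5.95% and 1.11%. The libraries shared 756 cell indices, and Scrublet called 8.17% and 1.997% of kept cells doublets. Levels in CPM are the UMIs of a gene over all UMIs, scaled to a common total. Chil1, the gene deleted in some of the mice of the pool, stood at 49.3 CPM (interval 47.4 to 51.3) over all kept cells of the NCD library. In the pool, which holds cells of both genotypes, it stood at 4.46 CPM (3.90 to 5.07, 232 UMIs in 76 cells). No level was taken by class. The paper reports that public single-cell data show Chi3l1 transcripts mainly in neutrophils. By staining it finds the protein mostly in Kupffer cells of normal livers, and it reports more protein in Kupffer cells and liver on HFHC. The transcript level here went the other way, in a pool that also holds Chi3l1-/- cells. The share of neutrophil-like cells also differed between the libraries, as given above. The parts of cell composition and of the deletion in the Chil1 difference were not tested.

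On chromosome 9 of the mouse, 4 of the members lie close together. In the GENCODE annotation of GRCm38, Ccr9 (chr9:123678439-123784330, plus strand), Cxcr6 (chr9:123806475-123811760, plus), Ccr1 (chr9:123962124-123968692, minus) and Ccr2 (chr9:124101950-124113557, plus) follow each other, with Xcr1 and Ccr3 among them. Cx3cr1 (chr9:119901616-120069879, minus) lies elsewhere on the same chromosome, Cxcr2 (chr1:74153989-74161246, plus) and Cxcr4 (chr1:128588199-128592293, minus) on chromosome 1, Ccr7 (chr11:99144196-99155077, minus) on chromosome 11 and Cxcr3 (chrX:101731535-101734269, minus) on the X chromosome. Exons of Ccr9 overlap the antisense genes Slc6a20a and AC165425.1 and the sense gene Gm17200, and exons of Cx3cr1 overlap antisense Gm33858. Whether the overlaps affected the molecules assigned to these 2 members was not tested.

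RefSeq promoters on GRCm38.p6, from 250 bases before to 50 bases after the start, were matched for 8 members; Ccr7 was not among them. They were searched on both strands for 7 short motifs, and 4 of the 8 held a match. These 4 are printed because they hold the matches, with the matched bases in capitals.
Cxcr2: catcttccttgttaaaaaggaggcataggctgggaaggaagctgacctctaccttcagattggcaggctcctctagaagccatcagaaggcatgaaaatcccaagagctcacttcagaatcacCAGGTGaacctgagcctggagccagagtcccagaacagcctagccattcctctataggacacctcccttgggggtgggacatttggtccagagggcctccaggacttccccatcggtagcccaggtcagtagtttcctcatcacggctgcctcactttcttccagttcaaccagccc
Cxcr4: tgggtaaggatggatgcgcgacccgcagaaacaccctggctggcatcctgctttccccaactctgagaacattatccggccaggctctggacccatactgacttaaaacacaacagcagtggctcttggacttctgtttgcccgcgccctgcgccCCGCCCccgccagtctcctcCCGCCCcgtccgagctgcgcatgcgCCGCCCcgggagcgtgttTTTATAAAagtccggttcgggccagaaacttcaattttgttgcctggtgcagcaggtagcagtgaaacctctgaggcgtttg
Ccr9: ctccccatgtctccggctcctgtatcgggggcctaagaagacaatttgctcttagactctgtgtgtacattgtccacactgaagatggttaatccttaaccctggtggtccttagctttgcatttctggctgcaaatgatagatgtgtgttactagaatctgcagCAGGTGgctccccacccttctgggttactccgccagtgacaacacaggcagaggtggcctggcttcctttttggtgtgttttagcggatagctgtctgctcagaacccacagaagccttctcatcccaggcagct
Cxcr3: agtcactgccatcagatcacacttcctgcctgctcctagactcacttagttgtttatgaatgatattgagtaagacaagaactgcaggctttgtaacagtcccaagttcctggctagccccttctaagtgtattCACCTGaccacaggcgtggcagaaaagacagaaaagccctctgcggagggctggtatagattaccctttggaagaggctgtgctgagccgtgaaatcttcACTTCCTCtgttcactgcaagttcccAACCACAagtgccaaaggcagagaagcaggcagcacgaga
The windows were chr1:74153744-74154043 (plus strand) for Cxcr2, chr1:128592250-128592549 (minus) for Cxcr4, chr9:123766961-123767260 (plus) for Ccr9 and chrX:101734098-101734397 (minus) for Cxcr3. Cxcr4 was the only member with a TATA box (TATAAA, found in 13.6% of all 32851 promoters; here 1 match on each strand, overlapping, from bases -32 and -30) and with GC boxes (GGGCGG, 35.7% of promoters; 3 matches, all as CCGCCC). An E-box (CAGGTG, 20.2% of promoters) stood at base -85 in Ccr9, at -127 in Cxcr2 and, as CACCTG, at -116 in Cxcr3. Cxcr3 also held the PU.1 motif as ACTTCCTC (GAGGAAGT on the other strand, 3.20% of promoters) and on the minus strand of the window the RUNX motif TGTGGTT, which 5.27% of promoters hold. The C/EBP motif TTGCNNAA (10.8% of promoters) and the T-box motif AGGTGTGA (1.28%) were found in none of the 8 windows, which says only that these letters were not there.

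The 4 neighbours named above, Ccr9, Cxcr6, Ccr1 and Ccr2, were highest in 4 different kinds of cell. Levels were expressed in CPM, the UMIs of a receptor in a class over all UMIs of that class, scaled to a common total. They describe where a receptor was found and were compared between classes, not between receptors. Among classes of at least 50 cells, 5 of the 9 receptors had the same highest class in both libraries. These were Cxcr2, Cxcr4 and Ccr1 in neutrophil-like cells, Ccr2 in classical monocyte-like cells and Ccr9 in plasmacytoid dendritic cell (pDC)-like cells. Ccr7, Cx3cr1, Cxcr3 and Cxcr6 were each high in related classes, and the class at the top differed between the libraries. For Ccr7 and Cxcr6 this difference rests on the limit of 50 cells. Mature dendritic cell-like cells had more Ccr7 in both libraries but were below the limit. Gamma delta T-like cells, at the top for Cxcr6 in the pool, also exceeded the top class of the NCD library but were below the limit there. The interval of the second class overlapped that of the first for Cxcr3 and Cxcr6 in both libraries and for Cx3cr1 and Cxcr4 in the NCD library.

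**Figure D1:**
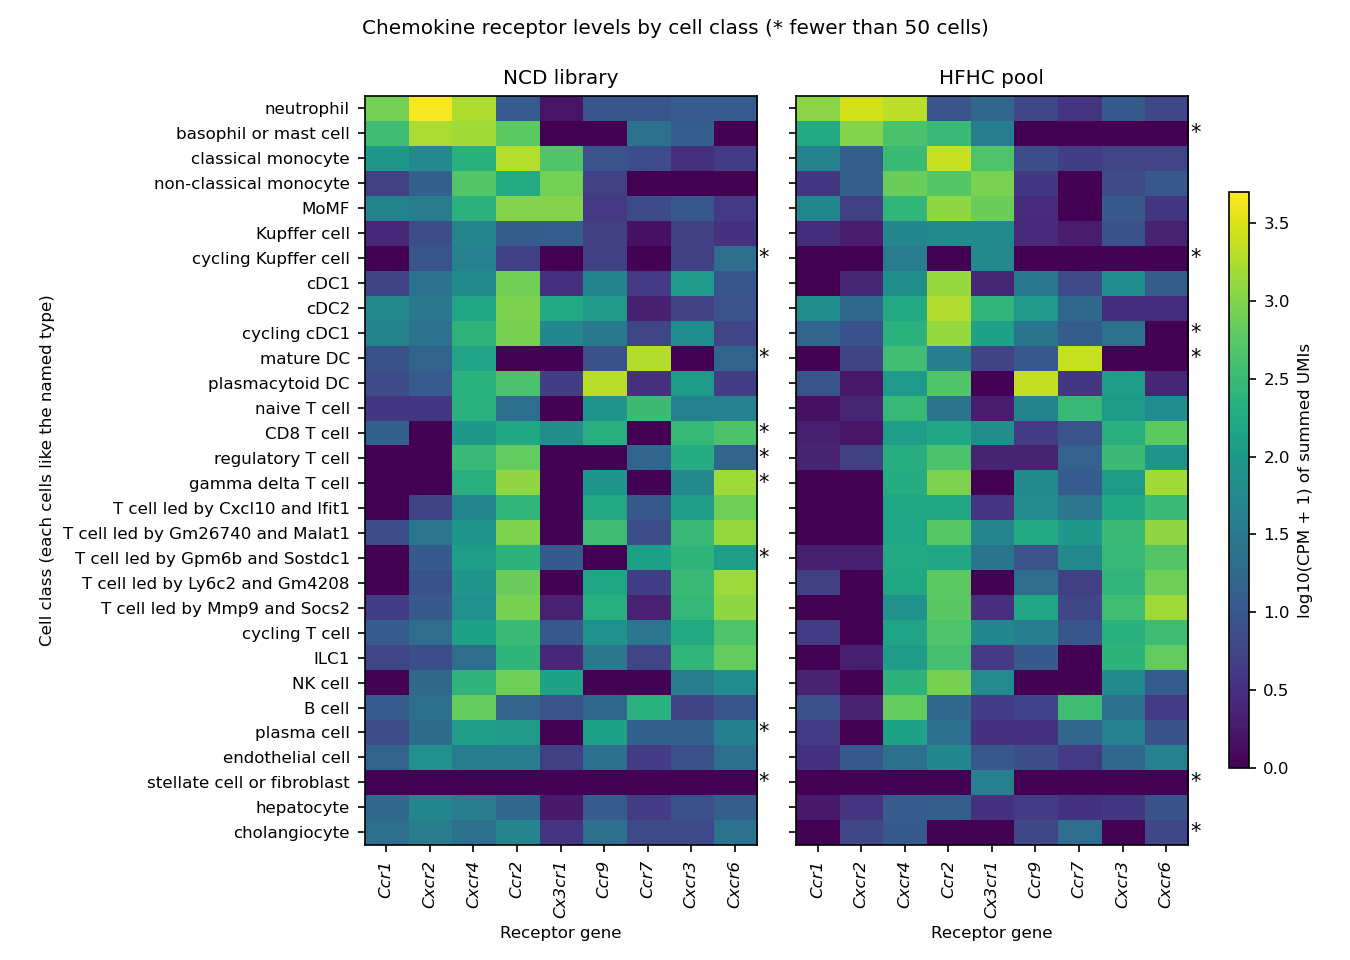
Heatmap of the level of each of the 9 receptors (columns) in each of the 30 named classes (rows) in the NCD library (left) and the HFHC pool (right), coloured by log10(CPM + 1); a star marks a class with fewer than 50 cells in that library. Cxcr2 is bright in neutrophil-like and basophil or mast cell-like cells. In the other classes without a star it is at most 74.0 CPM in the NCD library, which is intermediate on this scale, and at most 16.1 CPM in the pool. Ccr2 and Cxcr4 are bright over many classes.

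The receptors differed in how widely they were spread. In the NCD library, Ccr2 was within 10-fold of its highest level in 14 of 22 classes, Cxcr3 in 11 and Cxcr4 in 10, against 2 classes each for Cxcr2 and Ccr7. In the HFHC pool, Cxcr3 was within 10-fold in 15 of 24 classes, Ccr2 in 14, Cxcr6 in 9 and Cxcr4 in 7, against 1 class each for Cxcr2, Ccr9 and Ccr1. Neutrophil-like cells held 86.5% and 86.6% of all Cxcr2 UMIs of the kept cells in the NCD library and the pool, although they were a far smaller share of cells in the pool. For Cxcr4 the share of UMIs in neutrophil-like cells was 52.8% and 19.2%.

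Neutrophil-like cells carried 3 members together. CXCR2 is the receptor by which neutrophils follow CXCL1 and CXCL2, CXCR4 binds CXCL12 and retains neutrophils in the bone marrow, and CCR1 binds CCL3, CCL5 and related chemokines. Cxcr2 stood at 4581 CPM (95% interval 4510 to 4653) in the 3149 neutrophil-like cells of the NCD library and at 2925 CPM (2806 to 3048) in the 339 of the pool. Cxcr4 stood at 1760 CPM (1716 to 1805) and 2139 CPM (2037 to 2244), and Ccr1 at 847 CPM (817 to 879) and 1125 CPM (1051 to 1202). The intervals of the libraries did not overlap for any of the 3, with Cxcr2 lower and the other two higher in the pool. For shares of cells with a UMI, each cell was thinned to 1000 UMIs and cells with fewer were left out, so these shares are of the deeper cells of a class. In all named classes 5483 of 18484 cells (NCD library) and 3711 of 15235 (pool) were left out, and 1617 of 3149 and 336 of 339 neutrophil-like cells remained. Of these, 97.7% (interval 96.8% to 98.3%) and 85.4% (81.2% to 89.0%) had a Cxcr2 UMI, 72.9% and 78.3% a Cxcr4 UMI and 53.1% and 65.8% a Ccr1 UMI. Over all 3149 and 339 cells of the class, without thinning, the 9 neutrophil markers summed to 75290 CPM (NCD library) and 53150 CPM (pool). All 9 were detected, and they include the chemokine gene Cxcl2. The 10 hepatocyte markers summed to 1966 and 3070 CPM there. Their part in the differences was not tested.

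**Figure D2:**
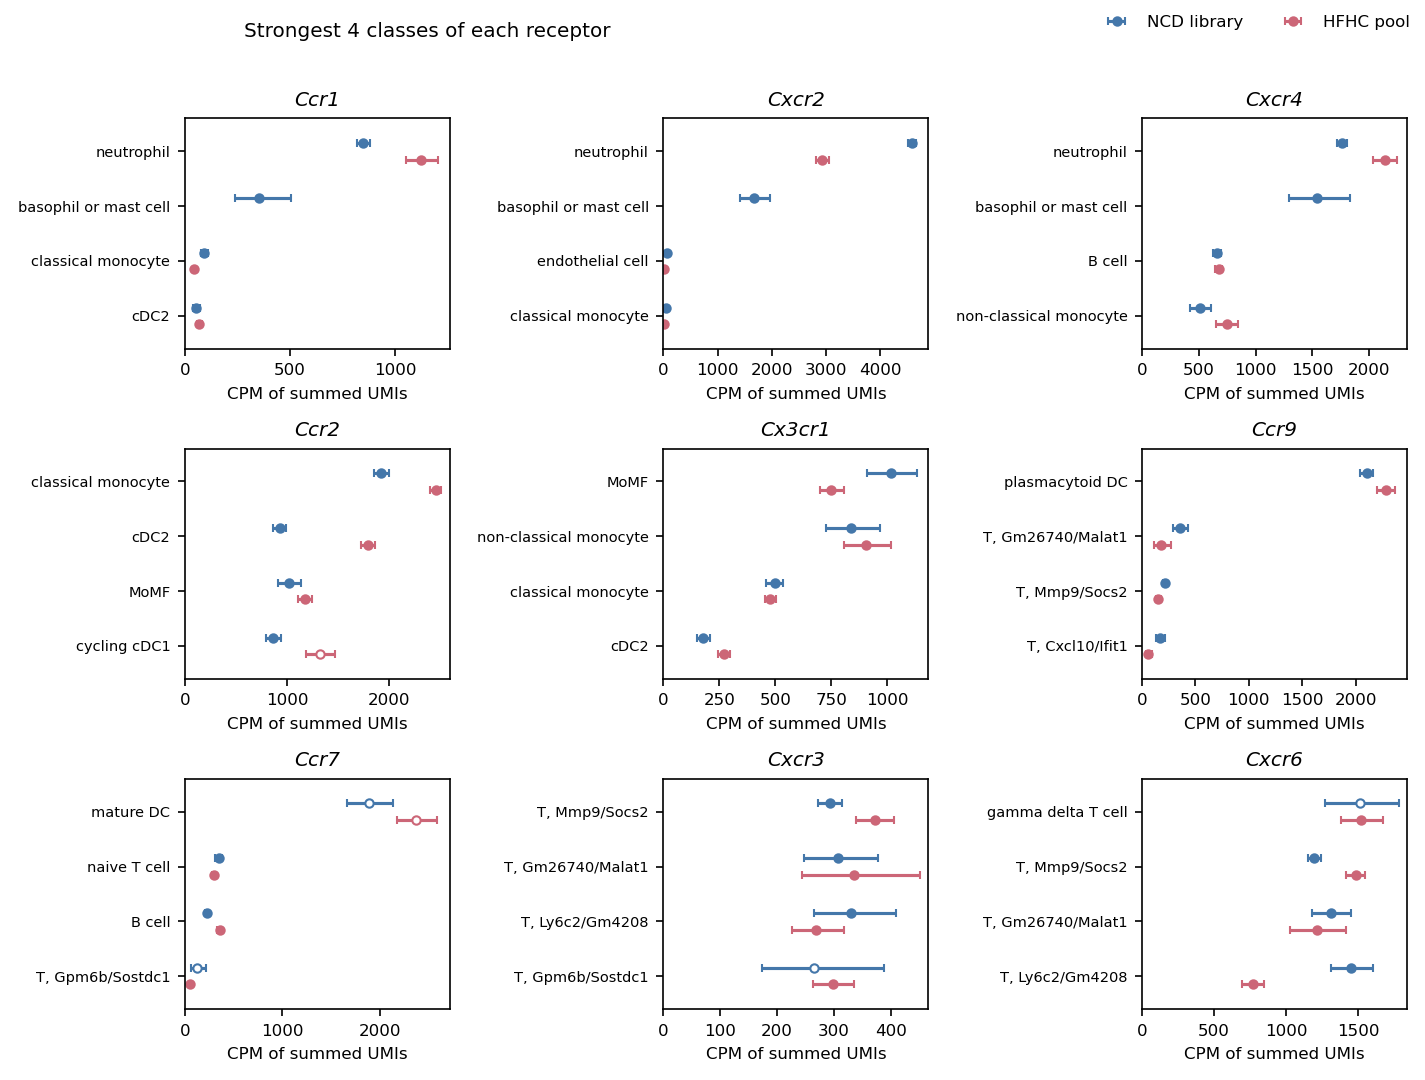
Level in CPM (horizontal axis) of each receptor in the 4 classes with its highest mean level over the libraries in which the class had at least 20 cells, in the NCD library and the HFHC pool; bars are exact Poisson 95% intervals for counting error and open symbols mark classes under 50 cells. The interval of Cxcr2 in neutrophil-like cells stands clear of the other classes shown in both libraries, while those of Cxcr3 overlap among T-like classes within each library.

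Basophil or mast cell-like cells were the only other class of at least 50 cells with Cxcr2 above 74.0 CPM. They were split from a cluster that also held plasma cell-like cells, by the markers detected in each cell. Their 51 cells in the NCD library stood at 1674 CPM (1410 to 1974), and the 14 cells of the pool at 994 CPM (749 to 1294). Their neutrophil markers summed to 519 and 36.1 CPM, within the range of the classes that had little Cxcr2. Cxcr4 reached 1545 CPM (1291 to 1833) there in the NCD library, which overlapped the interval of neutrophil-like cells, and Ccr1 reached 354 CPM (239 to 505). The same 51 cells had 11050 CPM of Ccl3, a ligand of CCR1.

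Outside neutrophil-like and basophil or mast cell-like cells, Cxcr2 was low. In the NCD library it ran from 2.95 to 74.0 CPM over 20 classes with a median of 20.9 CPM, the top being endothelial-like cells, and in the pool from 0 to 16.1 CPM over 23 classes with a median of 1.02 CPM and 8 classes at 0. The neutrophil markers in those same classes had a median of 386 CPM (107.9 to 1291) for the NCD library and 80.5 CPM (11.9 to 755) for the pool, so both were higher in the NCD library. Without the cells that Scrublet called doublets, the level of the NCD library was 15.6 CPM in endothelial-like cells and 23.9 CPM, from 48.6 CPM, in hepatocyte-like cells. Hepatocyte-like cells, which served as the reference for low shares although they were not shown to lack the receptor, had a Cxcr2 UMI in 2.79% (NCD library) and 0.158% (pool) of thinned cells. Only 2 of 21 other classes of the NCD library and 1 of 23 of the pool had a share whose interval lay above that of hepatocyte-like cells.

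**Figure D3:**
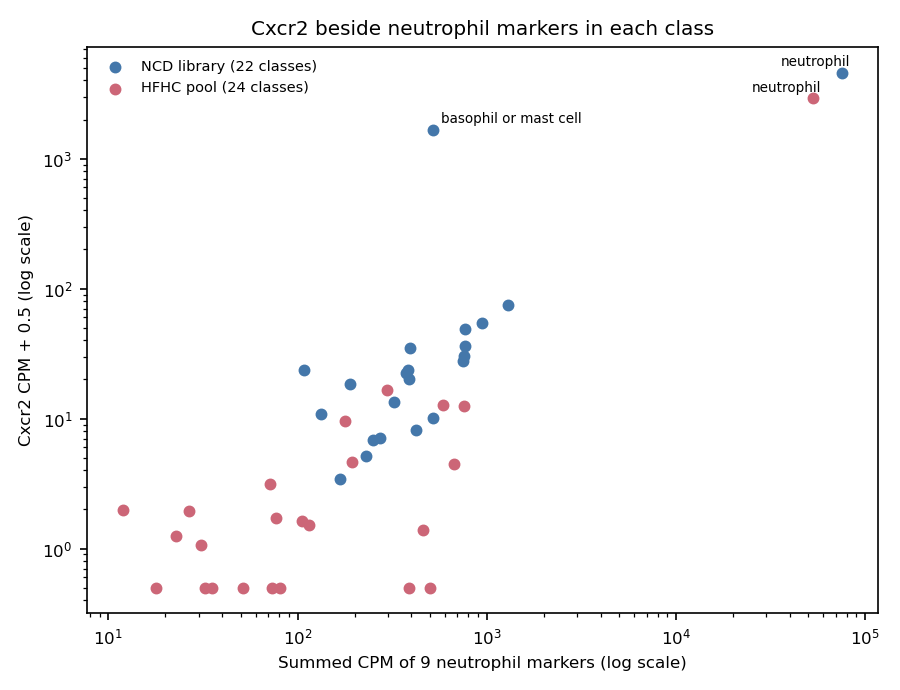
Cxcr2 level in CPM with 0.5 CPM added (vertical axis) against the summed level of the neutrophil markers in CPM (horizontal axis), both on log scales, for the 22 classes of the NCD library and the 24 of the HFHC pool with at least 50 cells. Neutrophil-like cells lie at the upper right, and the basophil or mast cell-like class of the NCD library lies high with few neutrophil markers. All other classes lie at or below 74.0 CPM of Cxcr2. Mmp9, 1 of the markers, also leads a T-like class, and Cxcl2, another, was also found in MoMF-like cells.

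CCR2 is the receptor for CCL2 that releases classical monocytes from the bone marrow and brings them into inflamed tissue. Ccr2 was highest in classical monocyte-like cells, at 1923 CPM (1850 to 1997) in the 349 cells of the NCD library and 2455 CPM (2403 to 2509) in the 526 of the pool, and 72.2% and 77.4% of the thinned cells had a UMI. Monocyte-derived macrophage (MoMF)-like cells had 1023 CPM (915 to 1140) and 1174 CPM (1108 to 1243). Type 2 conventional dendritic cell (cDC2)-like cells had 929 CPM (867 to 994) and 1796 CPM (1728 to 1865), and type 1 (cDC1)-like cells 825 CPM (776 to 877) and 1330 CPM (1269 to 1393). In the NCD library the interval of MoMF-like cells overlapped that of cDC2-like cells and lay above that of cDC1-like cells, whereas in the pool both dendritic cell-like classes lay above MoMF-like cells. Among lymphoid classes, Ccr2 was found in NK-like cells at 763 and 882 CPM and in gamma delta T-like cells at 1217 CPM (44 cells) and 949 CPM (72 cells). T-like cells led by Gm26740 and Malat1 had 960 and 547 CPM, and those led by Ly6c2 and Gm4208 had 716 and 590 CPM. T-like cells led by Mmp9 and Socs2 had 861 CPM (826 to 898) and 574 CPM (534 to 616). In thinned cells, 15 of 21 classes of the NCD library and 18 of 23 of the pool lay above hepatocyte-like cells, which had shares of 1.35% and 1.12%.

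CX3CR1 binds fractalkine (CX3CL1) and marks patrolling monocytes and many tissue macrophages. Cx3cr1 stood at 1020 CPM (912 to 1136) in MoMF-like and 840 CPM (727 to 967) in non-classical monocyte-like cells of the NCD library, and these intervals overlapped. In the pool they were 751 CPM (698 to 806) in MoMF-like and 907 CPM (807 to 1016) in non-classical monocyte-like cells, without overlap. The order in the pool changed under thinning. In a random thinning of each cell to 1000 UMIs, MoMF-like cells were highest in both libraries (957 CPM in the pool). There 55.6% of the 117 MoMF-like cells of the pool had a UMI, against 47.3% of the 74 non-classical monocyte-like cells. By the mean over cells of each CPM, which also weighs cells equally, non-classical monocyte-like cells stayed highest in the pool (925.5 CPM). All 117 and 74 of these cells had at least 1000 UMIs and the thinning was a single random draw. The cause of the change was not tested. With classes taken from each cell's own markers, non-classical monocyte-like cells were highest in both. Classical monocyte-like cells had 497 and 478 CPM. They came from 2 sub-clusters that differed in both receptors. The sub-cluster led by F13a1 and Chil3 (196 and 241 cells) had 762 and 713 CPM of Cx3cr1 and 2106 and 2946 CPM of Ccr2. The one led by Ly6i, Cxcl9 and Cxcl10 (153 and 285 cells), of which Cxcl9 and Cxcl10 are induced by interferon, had 237 and 306 CPM of Cx3cr1 and 1743 and 2097 CPM of Ccr2.

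Kupffer-like cells, the resident macrophages of the liver sinusoids, carried little of either receptor. Over the whole class both were higher in the pool, but not in both of its sub-clusters. Ccr2 was 11.5 CPM (151 UMIs in 85 of 2648 cells) in the NCD library, against 56.3 CPM (188 UMIs in 35 of 359 cells) in the pool, and Cx3cr1 was 11.9 CPM (157 UMIs in 65 cells) and 57.2 CPM (191 UMIs in 33 cells). The log2 ratios of pool over NCD library were 2.29 (1.98 to 2.61) and 2.26 (1.95 to 2.57), where 5.31% of all genes tested in this class were at least 2-fold higher. Most Kupffer-like cells had no UMI of either in either library, and the Ccr2 level of the NCD library was below the 15.8 CPM of its hepatocyte-like cells. The summed classical monocyte markers of this class (9 of 9 detected) were lower in the pool (159 against 286 CPM), the neutrophil markers higher (463 against 249.6 CPM) and the MoMF markers 34030 against 33040 CPM, and their part in the difference was not tested. The neutrophil list includes Cxcl2, which stood at 582 CPM in MoMF-like cells of the pool. The MoMF list includes C1qa, C1qb and Apoe, and MoMF-like cells themselves summed to 49320 (NCD library) and 43190 CPM (pool). Neither sum is therefore specific to the cell type it is named after. In the sub-cluster led by C6 and Kcna2 (1990 and 298 cells) Ccr2 was 6.92 CPM in the NCD library, against 59.6 CPM in the pool, and in the one led by Vsig4 and Fcna (658 and 61 cells) 53.1 and 9.06 CPM, the last resting on 2 UMIs. Cx3cr1 was 9.11 and 60.3 CPM in the first and 37.7 and 13.6 CPM in the other, the last resting on 3 UMIs. After thinning, a Ccr2 UMI was found in 1.17% (0.779% to 1.69%) and 2.59% (1.19% to 4.85%) of Kupffer-like cells, and both intervals overlapped those of hepatocyte-like cells (0.776% to 2.19% and 0.852% to 1.45%). For Cx3cr1 the shares were 1.09% (0.711% to 1.59%) and 2.87% (1.39% to 5.22%), above the 0.0846% and 0.138% of hepatocyte-like cells without overlap.

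CCR9 binds CCL25 and is known from T cells that home to the gut and from pDCs. Ccr9 was highest in pDC-like cells, at 2102 CPM (2041 to 2165) in 653 cells of the NCD library and 2282 CPM (2202 to 2364) in 221 cells of the pool. In thinned cells, 79.4% and 80.5% had a UMI, and 65.9% and 71.3% of all Ccr9 UMIs of kept cells lay in this class. The next classes were T-like. T-like cells led by Gm26740 and Malat1, a shallow class with a median of 890 and 1878 UMIs in which Ccr9 is itself among the genes that set it apart, had 359 CPM (294 to 434) and 179.6 CPM (114 to 269.5). T-like cells led by Mmp9 and Socs2 had 213 and 153 CPM. T-like cells led by Ly6c2 and Gm4208 had 154 CPM (40 UMIs) and 19.8 CPM (10 UMIs), and those led by Cxcl10 and Ifit1, genes induced by interferon, had 169.7 CPM (73 UMIs) and 59.7 CPM (23 UMIs). In these last 2 classes the log2 ratios of pool over NCD library were -2.86 (-4.12 to -1.93) and -1.47 (-2.25 to -0.81), where 6.4% and 5.76% of all genes tested were at least 2-fold lower.

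CCR7 guides naive lymphocytes and matured dendritic cells to lymph nodes through CCL19 and CCL21. Ccr7 was highest in naive-like T cells of the NCD library, at 346 CPM (311 to 385), and in B-like cells of the pool, at 357 CPM (334 to 382). The counterparts were 229.8 CPM (209 to 252) in B-like cells of the NCD library and 300.1 CPM (277 to 325) in naive-like T cells of the pool, and in each library the intervals did not overlap. The order of these classes depended on how cells were classed: with classes from each cell's own markers, naive-like T cells were highest in both libraries, at 369 and 454 CPM. Without thinning, a Ccr7 UMI was found in 51.3% of naive-like T cells and 45.6% of B-like cells of the pool. Naive-like T cells came from 2 sub-clusters, both with Ccr7 among their leading genes. The sub-cluster led by Igfbp4 had 448 and 505 CPM and the one led by Fam241a and Dapl1 279 and 248 CPM. Mature dendritic cell-like cells had much more Ccr7, 1892 CPM (1669 to 2135) and 2376 CPM (2174 to 2592), but held only 31 and 35 cells and so were outside the ranking. All 35 of those cells in the pool and 29 of the 31 in the NCD library had at least 1 Ccr7 UMI. Among the other classes of at least 50 cells the highest level was 93.7 CPM, in T-like cells led by Gm26740 and Malat1 of the pool.

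CXCR3 is the receptor for the interferon-induced chemokines CXCL9 and CXCL10 on activated T and NK cells, and CXCR6 binds CXCL16 and marks lymphocytes that stay in the liver sinusoids. Both were highest in lymphoid classes. Cxcr6 stood at 1450 CPM (1307 to 1604) in the 121 T-like cells led by Ly6c2 and Gm4208 of the NCD library and at 766 CPM (692 to 847) in the 130 of the pool. T-like cells led by Mmp9 and Socs2 had 1196 CPM (1154 to 1239; 1312 cells) and 1481 CPM (1416 to 1547; 395 cells), and those led by Gm26740 and Malat1 1309 CPM (1182 to 1446) and 1210 CPM (1027 to 1417). Gamma delta T-like cells had 1510 CPM (44 cells) and 1520 CPM (1377 to 1673; 72 cells). In the NCD library the interval of the class led by Gm26740 overlapped both its neighbours in the order, and in the pool the intervals of gamma delta T-like cells and of the classes led by Mmp9 and by Gm26740 overlapped, while the class led by Ly6c2 lay below them. The log2 ratio of the class led by Ly6c2 was -0.92 (-1.13 to -0.71). Type 1 innate lymphoid cell (ILC1)-like cells had 663 and 657 CPM, and the interval of their log2 ratio spanned 0 (-0.01, interval -0.20 to 0.17). CD8 T-like cells were scarce in the NCD library (35 cells) and numerous in the pool (526 cells), where they had 584 CPM of Cxcr6. They fell into 2 sub-clusters there: 278 cells led by Havcr2 had 791 CPM of Cxcr6 and 21.7 CPM of Cx3cr1, and 248 cells led by Cd8b1, with Cx3cr1 among their leading genes, had 331 and 122 CPM.

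The 4 highest levels of Cxcr3 lay close together in each library. In the NCD library they were 331 CPM (265 to 409) in T-like cells led by Ly6c2, 308 CPM (248 to 378) in those led by Gm26740, 293 CPM (272 to 315) in those led by Mmp9 and 271 CPM (231 to 316) in ILC1-like cells. In the pool they were 372 CPM (339.6 to 406) in T-like cells led by Mmp9, 339 CPM (298 to 384) in regulatory T-like cells, 336 CPM (243 to 452) in T-like cells led by Gm26740 and 298 CPM (263 to 336) in those led by Gpm6b and Sostdc1. The intervals of neighbours in these orders overlapped. Other T-like classes were lower, with 41.3 and 103 CPM in naive-like T cells, 116 and 164 CPM in those led by Cxcl10 and Ifit1 and 171 and 221 CPM in cycling T-like cells. Cxcr3 was also present in pDC-like cells (102 and 114 CPM) and cDC1-like cells (99.6 and 64.8 CPM).

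Cxcr4 was found in many classes besides neutrophil-like cells. It stood at 661 and 676 CPM in B-like cells and at 509 CPM (421 to 609) and 746 CPM (656 to 846) in non-classical monocyte-like cells. In the pool all 23 other classes had a thinned share above that of hepatocyte-like cells (0.749%), and in the NCD library 15 of 21 did (2.96%). In B-like cells the log2 ratio was 0.03 and its interval spanned 0 (-0.07 to 0.14). pDC-like cells had 231 CPM (NCD library) and 98.8 CPM (pool), a log2 ratio of -1.22 (-1.51 to -0.94), where 5.15% of genes were at least 2-fold lower. ILC1-like cells went the other way, from 19.9 to 106 CPM (12 and 104 UMIs), with a log2 ratio of 2.31 (1.55 to 3.41), where 6.38% of genes were at least 2-fold higher. The lower of these levels was below the 34.3 CPM of hepatocyte-like cells in the NCD library, but above their 18.7 CPM without doublets.

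Each receptor was compared between the libraries in the class with its highest mean level among the 19 classes of at least 50 cells in both. There no receptor was at least 2-fold higher or lower in the pool. The log2 ratios of pool over NCD library were 0.41 for Ccr1, 0.35 for Ccr2, 0.12 for Ccr9, 0.28 for Cxcr4, 0.34 for Cxcr3 and 0.31 for Cxcr6. They were negative for Cxcr2 (-0.65, interval -0.71 to -0.58), Cx3cr1 in MoMF-like cells (-0.44, -0.63 to -0.25) and Ccr7 in naive-like T cells (-0.21, -0.40 to -0.01). With classes from each cell's own markers the direction was the opposite in the same class for Ccr7 (0.30) and for Ccr9 (-0.17). For comparison, 11.9% of all genes with at least 20 UMIs in neutrophil-like cells were at least 2-fold higher in the pool and 6.82% at least 2-fold lower. In classical monocyte-like cells these shares were 5.08% and 4.72%, in pDC-like cells 4.34% and 5.15% and in naive-like T cells 6.2% and 3.77%. In MoMF-like cells they were 6.71% and 7.63%, and in T-like cells led by Mmp9 and Socs2 5.81% and 4.02%. The 9 receptors were within 2-fold where they were highest, as were most genes of those classes.

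**Figure D4:**
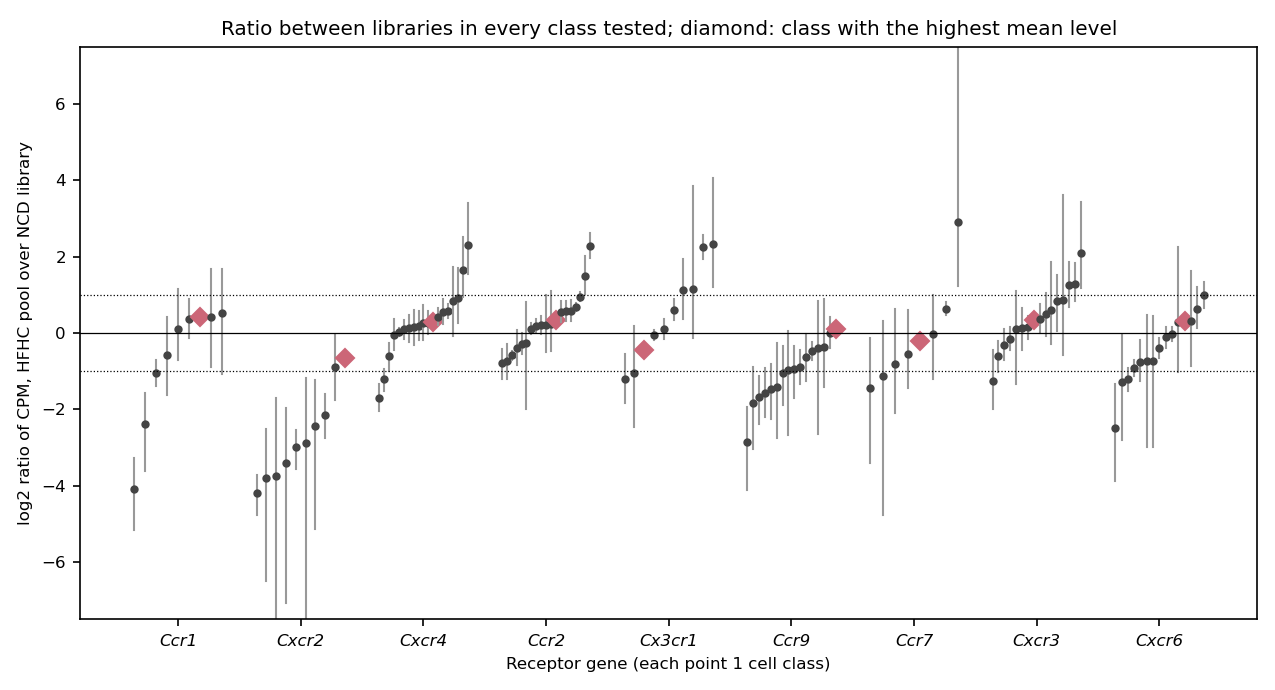
Log2 ratio of the level in the HFHC pool over the NCD library (vertical axis) for each receptor (horizontal axis) in each class with at least 20 UMIs of it in both libraries together; bars are exact 95% intervals for counting error, clipped at 7.5 in either direction, dotted lines mark 2-fold, and diamonds mark the class with the highest mean level. All 9 diamonds lie between the dotted lines, and all 10 intervals of Cxcr2 lie below 0.

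Differences of 2-fold or more were found in classes where a receptor was not at its highest. Of 122 pairs of receptor and class with at least 20 UMIs, 12 were at least 2-fold higher and 28 at least 2-fold lower in the pool, while over all genes tested in these classes from 4.34% to 12.7% were at least 2-fold higher and from 3.72% to 11.5% lower. Cxcr2 was at least 2-fold lower in 8 of 10 classes, with the lowest ratio in hepatocyte-like cells (48.6 against 2.61 CPM, where 11.5% of genes were lower). Ccr9 was at least 2-fold lower in 7 of 16 classes and higher in none. Ccr2 was at least 2-fold higher in 2 of 19 classes and lower in none. Besides Kupffer-like cells this was non-classical monocyte-like cells, at 185 CPM (43 UMIs) and 528 CPM (174 UMIs), where 7.79% of genes were at least 2-fold higher. The thinned shares of these cells were 17.0% (10.1% to 26.2%) and 25.7% (16.2% to 37.2%), with overlapping intervals. Ccr1 was lower in classical monocyte-like cells, at 91.9 and 44.5 CPM, with a log2 ratio of -1.05 (-1.40 to -0.69). The gap was larger in the sub-cluster led by Ly6i (97.5 and 35.2 CPM) than in the one led by F13a1 and Chil3 (86.1 and 57.2 CPM, under 2-fold, with overlapping intervals), and the difference between the sub-clusters was not tested.

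Among lymphoid classes, Cxcr3 was higher in the pool in naive-like T cells (41.3 and 103 CPM; log2 ratio 1.29, 0.84 to 1.84) and in B-like cells (4.71 and 21.99 CPM; 2.10, 1.19 to 3.43), where 6.2% and 6.93% of genes were at least 2-fold higher. The level in B-like cells of the NCD library was below the 6.91 CPM of hepatocyte-like cells. Cx3cr1 was higher in cycling T-like cells, at 9.15 CPM (6 UMIs) and 51.6 CPM (29 UMIs), where 6.67% of genes were. Cxcr6 was lower in T-like cells led by Cxcl10 and Ifit1, at 776 CPM (695 to 864) and 332 CPM (277 to 395). NK-like cells had less Cx3cr1 (139 and 60.7 CPM) and less Cxcr6 (64.2 and 10.9 CPM) in the pool, where 4.25% of genes were at least 2-fold lower. Without the cells that Scrublet called doublets, 14 of 118 pairs were at least 2-fold higher and 23 lower, and 2 pairs turned direction: in endothelial-like cells the log2 ratio of Ccr1 went from -2.39 to 0.31 and that of Ccr9 from -1.68 to 0.37. The ratio of Cxcr2 there went from -3.00 to -0.76, so none of the 3 receptors lower in endothelial-like cells was still 2-fold lower. With a limit of 10% on mitochondrial UMIs, Ccr9 in cycling T-like cells (-0.92), Ccr7 in neutrophil-like cells (-0.95) and Cxcr3 in endothelial-like cells (0.98) were within 2-fold.

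By class, the members at least 2-fold apart can be set beside all genes tested. Hepatocyte-like cells, with low levels of every receptor, had the most, 5 of 9 receptors lower (background 11.5%) and Cx3cr1 higher (7.71%). The levels compared are those that served as the reference for low values. The ratio of Cx3cr1 rested on 3 and 37 UMIs and its interval spanned 0 (-0.14 to 3.86). Without doublets Cx3cr1 (0.75) and Ccr9 (-0.92) were within 2-fold in these cells. B-like cells had 4 of 9 lower (3.72%), of which Cx3cr1 had 15 and 9 UMIs and an interval that spanned 0 (-2.47 to 0.19) and Cxcr6 had too few UMIs for a ratio without doublets. Endothelial-like cells had 3 of 9 lower (5.62%), all of them lost without doublets, and 2 of 9 higher (12.7%). Cxcr2 was the lower one in Kupffer-like cells (1 of 8 receptors, 5.84%), in cDC1-like cells (1 of 6, 4.88%, with 0 higher against 6.34%) and in T-like cells led by Mmp9 and Socs2 (1 of 6, 4.02%). Cycling T-like cells had 2 of 7 lower, Ccr7 and Ccr9 (5.19%), ILC1-like cells 1 of 5 lower, Ccr9 (5.48%), and neutrophil-like cells 1 of 8 lower, Ccr7 at 28 and 2 UMIs (6.82%; interval -4.78 to 0.32, which spanned 0, and too few UMIs for a ratio without doublets). In cDC2-like cells Ccr7 was the 1 of 7 higher, at 1 and 24 UMIs (5.92%), and none was lower (4.28%). In T-like cells led by Cxcl10 and Ifit1, Cxcr4 was the 1 of 5 higher, at 46.5 and 151 CPM (8.26%). No receptor was 2-fold higher in NK-like cells (6.72%) or in T-like cells led by Ly6c2 and Gm4208 (7.36%), and none was 2-fold lower in non-classical monocyte-like cells (5.04%). In T-like cells led by Gm26740 and Malat1 none of 5 was 2-fold higher (7.03%) or lower (7.13%).

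**Figure D5:**
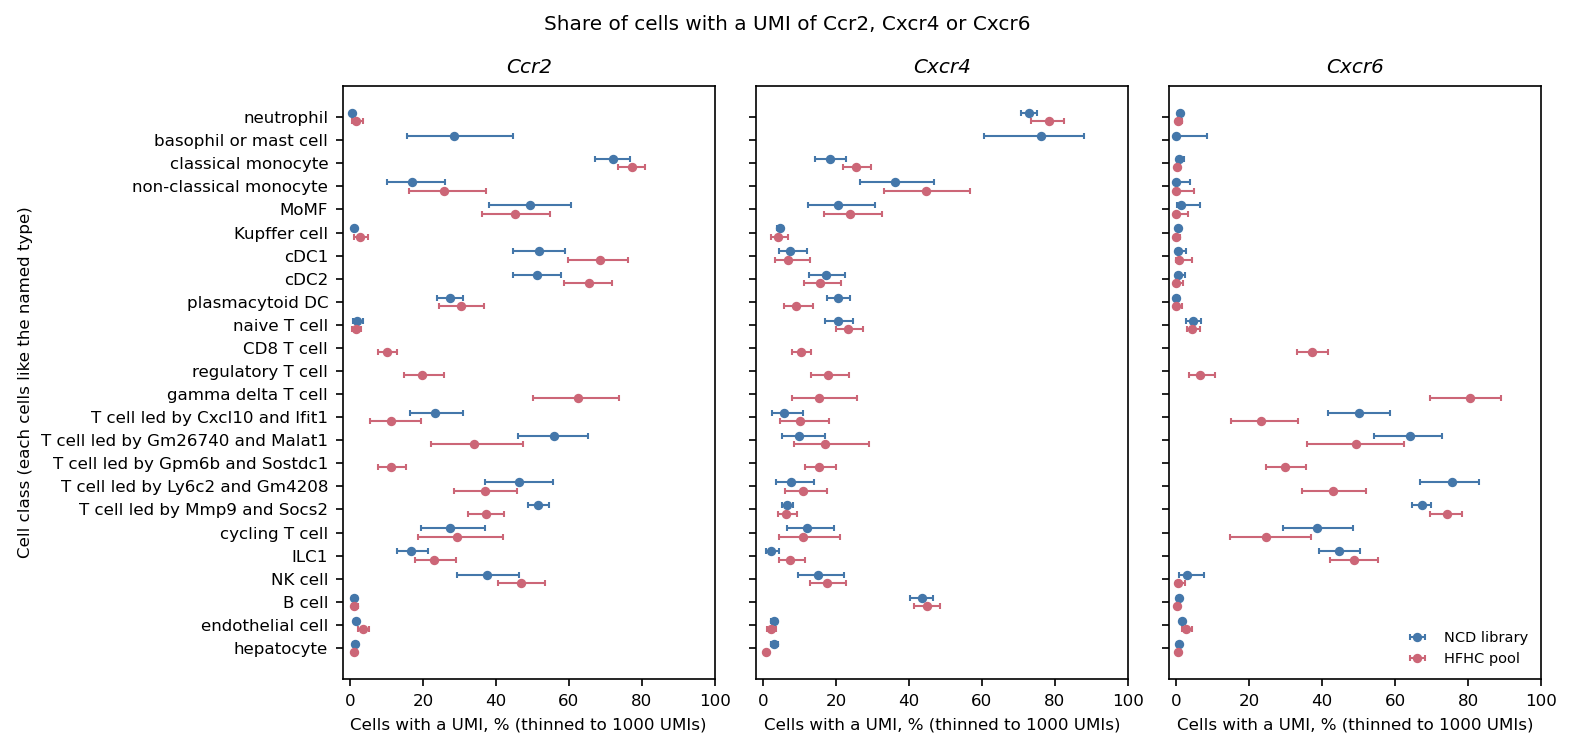
Share of cells (percent, horizontal axis) with at least 1 UMI of Ccr2, Cxcr4 or Cxcr6 among cells thinned to 1000 UMIs, with shallower cells left out, by class (vertical axis), in the NCD library and the HFHC pool; bars are exact binomial 95% intervals, and each class shown has at least 50 cells in that library; cholangiocyte-like, plasma cell-like and cycling cDC1-like cells are counted but not drawn. Shares of Cxcr6 lay above those of hepatocyte-like cells in 7 of 21 classes of the NCD library and 12 of 23 of the pool, those of Ccr2 in 15 and 18 and those of Cxcr4 in 15 and 23.

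The share of cells with a UMI depends on depth, and hepatocyte-like cells were shallow (median 736 and 1165 UMIs) compared with neutrophil-like cells (1010 and 2112) and B-like cells (1303 and 2607). Without thinning, 91.1% and 93.5% of classical monocyte-like cells had a Ccr2 UMI, 95.9% and 99.5% of pDC-like cells a Ccr9 UMI and 96.6% and 92.3% of neutrophil-like cells a Cxcr2 UMI. The 1182 of 3605 and 5074 of 8753 hepatocyte-like cells with at least 1000 UMIs had thinned shares from 0.0846% (Cx3cr1) to 2.96% (Cxcr4) in the NCD library and from 0.0788% (Ccr1) to 1.12% (Ccr2) in the pool. B-like cells had a Ccr1 UMI in 0.901% (NCD library) and 0.738% (pool) of thinned cells, and a Cxcr2 UMI in 1.101% in the NCD library. Shares at or below those of hepatocyte-like cells were read as background, although free RNA was not measured on its own. Of the 34 pairs at least 2-fold apart outside hepatocyte-like cells, 6 had a level at or below that of hepatocyte-like cells in both libraries. In B-like cells these were Cxcr2 and Cxcr6, and in Kupffer-like, pDC-like and cDC1-like cells and T-like cells led by Mmp9 and Socs2 it was Cxcr2. In 6 more the level of the NCD library alone was at or below it: Cxcr3 in B-like and endothelial-like cells, Ccr2 in Kupffer-like, Ccr1 in endothelial-like, Cxcr4 in ILC1-like and Ccr7 in cDC2-like cells. These counts depend on doublets, since without them hepatocyte-like cells of the NCD library had 6.34 CPM of Ccr1 (from 15.6), 5.74 CPM of Ccr9 (from 10.4) and 18.7 CPM of Cxcr4 (from 34.3). Cxcr4 in ILC1-like cells then lay above them, and Ccr9, Cx3cr1 and Cxcr2 in endothelial-like cells below them.

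The share of cells with both of 2 receptors was set beside the product of their separate shares. Among 208 pairs of receptors with a UMI in at least 5% of the thinned cells of a class and library, the product of the 2 shares lay inside the interval of the share with both in 204. Of these 208, 84 had at most 5 cells with both and intervals too wide to separate much, and among the 51 with at least 20 such cells the product lay inside in 50. In thinned neutrophil-like cells, 71.5% and 67.9% had Cxcr2 and Cxcr4 UMIs together, against products of 71.2% and 66.9%, and 86.5% and 87.5% had at least 2 of the 9 receptors. Nearly all of these cells in the NCD library had a Cxcr2 UMI, so the share with both could hardly differ from the product there. T-like cells led by Mmp9 and Socs2 had Ccr2 and Cxcr6 together in 35.0% and 28.6% (products 34.8% and 27.6%). The 4 pairs outside were all in the pool. The products were taken from the same cells as the intervals, so how many pairs counting error alone would leave outside was not worked out. B-like cells had Ccr7 and Cxcr4 together in 15.0% against a product of 11.8%, and cDC2-like cells Cx3cr1 and Cxcr4 in 6.45% against 3.47%. NK-like cells had Ccr2 and Cx3cr1 together in 0 of 241 cells, which allows a share of up to 1.245% by a limit of 3 counts and 1.52% by the exact interval, against 2.53%, and T-like cells led by Gpm6b and Sostdc1 had Cxcr4 and Cxcr6 in 1.74% against 4.56%.

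Likeness of pattern was measured over the 46 points given by the classes of at least 50 cells in each library, as Pearson r of log2(CPM + 1) among 12123 genes. Cxcr2 went with S100a9, S100a8 and Retnlg (0.91, 0.90 and 0.89), neutrophil markers of these tables. Ccr1 went with Ptgs2os2, Cxcr2 and Alox5 (0.83, 0.83 and 0.82), and Cxcr4 with Il17ra, Ep300 and Iqgap1 (0.81, 0.76 and 0.75). Cx3cr1 went with Smpdl3b, Clec4a3 and Clec4b1 (0.77, 0.77 and 0.76) and Ccr2 with Coro2a, Ptger4 and Otulinl (0.71, 0.71 and 0.70). Cxcr6 went with Podnl1, Tcrg-C1 and Tcrg-C2 (0.96, 0.94 and 0.94) and Cxcr3 with Tnfrsf18, Cd28 and Thy1 (0.86, 0.86 and 0.84). Ccr7 went with Cxcr5, Cpm and Trib2 (0.77, 0.69 and 0.69) and Ccr9 with Pacsin1, St8sia1 and Jaml (0.76, 0.69 and 0.65). Among the members themselves the highest values were Ccr1 with Cxcr2 (0.83) and Cxcr3 with Cxcr6 (0.80). The points of a library share its depth and free RNA, so these are descriptions.

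Among other chemokine receptors, Xcr1, the receptor of cross-presenting dendritic cells, was highest in cDC1-like cells at 1230 and 896 CPM, and Cxcr5, which guides B cells into follicles, in B-like cells at 384 and 296.5 CPM. Ccr8 and Ccr4 were highest in regulatory T-like cells of the pool, at 65.7 and 68.4 CPM. The atypical receptors Ackr1, Ackr2, Ackr3 and Ackr4, which bind chemokines without G protein signalling, were all highest in endothelial-like cells. Ccrl2, which presents chemerin, was highest in neutrophil-like cells, at 100.3 and 1634 CPM (log2 ratio 4.02), and it was at least 2-fold higher in the pool in 8 of 14 classes.

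Several ligands of the 9 receptors differed by far more between the libraries. In neutrophil-like cells, 12 of 22 ligand genes had at least 20 UMIs. Of these, 7 were at least 2-fold higher and 1 at least 2-fold lower in the pool, where 11.9% and 6.82% of all genes tested were, with a median log2 ratio of 1.84 against 0.08 over all genes. Cxcl2, a ligand of CXCR2 and also 1 of the neutrophil markers, was at 452 CPM (NCD library) and 6942 CPM (pool) in these cells, Ccl3 at 223 and 1894 CPM, Ccl4 at 68.8 and 1264 CPM and Cxcl10 at 23.0 and 609 CPM. Ccl4 was at least 2-fold higher in all 18 classes where it could be compared and Ccl3 in 15 of 16. Ccl6 went the other way, at least 2-fold lower in 6 of 14 classes and higher in 0. In pDC-like cells 3 of 6 ligands were higher and 3 lower (4.34% and 5.15% of all genes), with a median log2 ratio of -0.16. In classical monocyte-like cells 4 of 10 ligands were higher and 1 lower (5.08% and 4.72% of all genes; median 0.38 against -0.0040), the lower one being Cxcl9, at 2053 and 888 CPM. In MoMF-like cells 4 of 12 were higher and 1 lower (6.71% and 7.63% of all genes; median 0.34 against -0.07), and Cxcl16, the ligand of CXCR6, was highest there at 674 and 472 CPM. Cxcl12, the ligand of CXCR4, was highest in hepatocyte-like cells at 105 and 84.3 CPM, followed by endothelial-like cells at 89.6 and 42.2 CPM. As for the other genes, only classes of at least 50 cells were ranked. Stellate or fibroblast-like cells, with 9 and 5 cells, were not among them. Cx3cl1, Ccl19 and Ccl25 were at or under 15.6 CPM in every class of at least 50 cells in both libraries, and Cxcl11 was not analysed here.

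Of the 22 genes of receptor signalling and desensitization, most were within 2-fold in the leukocyte classes that led a member. In neutrophil-like cells 3 of 21 were at least 2-fold higher and none lower (11.9% and 6.82% of all genes; median log2 ratio 0.04 against 0.08). In classical monocyte-like cells 2 of 21 were higher and none lower (5.08% and 4.72% of all genes), and in pDC-like cells 2 of 19 were higher and none lower (4.34% and 5.15%). Hepatocyte-like cells differed, with 2 of 22 higher and 9 lower (7.71% and 11.5% of all genes; median -0.65 against 0.07). Gnb2, a G protein beta subunit, was at least 2-fold higher in the pool in all 18 classes where it could be compared, with log2 ratios from 2.91 to 4.98. Its highest level in the NCD library was only 30.2 CPM (7 UMIs, non-classical monocyte-like cells), against 427 CPM in cDC2-like cells of the pool. Whether this reflects the cells or how the libraries were made and counted was not tested. Gnb1 was within 2-fold in all 19 classes. Rgs1, which ends G protein signalling, was at least 2-fold higher in 12 of 19 classes and lower in none, and Rgs2 was higher in 10 and lower in 1. Arrb2, a beta-arrestin that takes receptors off the surface, was at least 2-fold lower in 5 of 19 classes and higher in none.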

How the data were processed

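The authors deposited counts of molecules (UMIs) per gene and cell, made with the BD Rhapsody WTA Analysis Pipeline 1.10.1 on GRCm38 with sequencing errors in molecular indices corrected; these deposited counts are raw and hold cells in rows. The library titled MCD was tied to its table by elimination, since the table's header names no diet. Cells with 200 to 4000 genes and at most 25% mitochondrial UMIs were kept, and genes found in at least 3 cells were used for clustering. Seurat 5.3.0 with sctransform 0.4.2 (R 4.3.3) integrated 4000 variable genes without any chemokine receptor, using 30 principal components, 20 neighbours and resolution 0.8, with myeloid and T or NK clusters clustered again at 0.5. Main clusters were named from marker lists (score of at least 1 on the log2 scale, 3 markers in at least 10% of cells) and sub-clusters by the score alone, with limits set after the clusters were seen. T-like sub-clusters below that score, whose cells mostly held at least 3 T cell markers, were named after leading genes. Main clusters of mixed lineage were split cell by cell on detected markers, which gave the basophil or mast cell-like, plasma cell-like and stellate or fibroblast-like classes. Doublets were called with Scrublet (scanpy 1.11.5) and kept, their removal being an alternative. Levels are CPM of summed UMIs with exact Poisson intervals, and shares have exact binomial (Clopper-Pearson) intervals, all at 95% (scipy 1.17.1). Ratios add 1 UMI to each library, need 20 UMIs in both together and 50 cells in each, and have exact conditional intervals. Intervals cover counting error only. A count of 0 was taken to allow up to 3 counts. The ratio and interval steps were tested on simulated data. The members, gene lists and marker lists were chosen with earlier results of these data known. Genes named beside the members were, for each receptor, the 3 with the highest Pearson r to it among genes of at least 200 UMIs, and list genes that had the highest level of their list in a class or were at least 2-fold apart in a class that led a member; others were chosen after their values were seen. Positions are from the GENCODE annotation of GRCm38 and promoters from RefSeq.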

Additional observations from a re-analysis of the deposited data

How the results depend on the processing

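The report rests on 1 library per diet, so no alternative can show how far a result depends on the library. No paired analysis was possible because each group holds 1 library. Of the 9 receptors, 5 had the same highest class in both libraries, a count of 5 or 6 under the other alternatives run and 8 when each cell was classed from its own markers without clusters. In that setting 5 of the 18 levels in the leading classes lay inside the counting interval of the reported level, against 13 to 18 in the other settings. Without integration, 1 receptor was at least 2-fold lower in the pool in its leading class, against 0 in the report. This was Cxcr6, with a log2 ratio of -1.36 against 0.31, but the leading class was plasma cell-like in that setting and T-like cells led by Mmp9 and Socs2 in the report, so the ratios are of different cells. Ratios within 2-fold also turned direction. Classes from each cell's own markers gave 0.30 for Ccr7 in naive-like T cells (reported -0.21), -0.17 for Ccr9 in pDC-like cells (0.12) and -0.50 for Cxcr6 in T-like cells. Where another class led, Cx3cr1 was 0.08 without doublets and 0.05 without integration, both in non-classical monocyte-like cells, and Cxcr3 was -0.27 in thinned T-like cells led by Gm26740 and Malat1 and -0.17 in plasma cell-like cells without integration. The cause was not tested. The counts of pairs at least 2-fold apart stayed within 1.5 times of the reported ones under 3 alternatives added after seeing the data. A limit of 10% on mitochondrial UMIs gave 13 higher and 23 lower of 111 pairs, and leaving out the cell indices found in both libraries gave 12 and 28 of 121. Depth limits low levels: outside the leading classes, many values rest on fewer UMIs than the leading classes have.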
